A study of Homo sapiens with 26 samples.

Results

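The vacuolar-type proton ATPase (V-ATPase) is described here through 10 genes, 6 of its membrane sector and 4 of its cytosolic V1 sector, out of 58849 gene entries in the ribosome profiling files and 60663 genes in the RNA-seq files. The members were taken by name and sector, with earlier results of these data known. ATP6V0A1, ATP6V0B, ATP6V0C, ATP6V0E1 and ATP6AP1 encode membrane-embedded proteins, ATP6V0D1 encodes the peripheral d subunit of the membrane sector, and ATP6V1A, ATP6V1B2, ATP6V1C1 and ATP6V1E1 encode V1 subunits.

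The V-ATPase is a rotary pump that uses ATP hydrolysis in its V1 sector to drive protons through its membrane sector, and so acidifies lysosomes, endosomes and the Golgi. Its membrane-embedded subunits are made at the ER and assembled there with the help of dedicated factors, while V1 subunits are soluble proteins that join the membrane sector from the cytosol. Unlike the related F-type ATP synthase of the mitochondrial inner membrane, the V-ATPase is not a mitochondrial complex.

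All libraries were made from HEK293T, a cell line of human embryonic kidney origin, in a monoclonal background whose ribosomal protein RPL29 carries an Avi tag. LOV-BirA, a biotin ligase switched on by blue light, was expressed from polyclonal sorted lines as a fusion to Sec61β (ER, SFFV promoter), as a fusion with GFP to the transmembrane domain of OMP25 (outer mitochondrial membrane, OMM, EF1α promoter) or free in the cytosol. Ribosome profiling gave 12 libraries, with 2 replicates at 3 locations and, for each lysate, its total input and the ribosomes captured on streptavidin, in cells treated with cycloheximide (CHX), which stops elongation. RNA-seq of whole transcripts with the OMM bait gave 14 libraries, from wild-type cells with a negative control gRNA, 1 monoclonal AKAP1 null line and 1 monoclonal LARP4 null line (2 replicates each, with CHX by the general protocol), and from cells without CHX (1 replicate), whose genotype the labels do not give.

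Depth ran from 1025114 to 19539527 coding-sequence footprints per ribosome profiling library, lowest in the OMM pulldown of replicate 1, and from 38347615 to 100840544 counts per RNA-seq library. In total inputs AKAP1 was at 115 to 119 CPM (counts per 1e6 counts of the library) in wild-type and 20.3 to 32.2 in AKAP1 null cells, and LARP4 at 225 to 231 in wild-type and 74.0 to 79.3 in LARP4 null cells. The markers of this line NEFM, NEFL, INA and PAX2 were present in every RNA-seq library, PAX2 at only 4.89 to 12.7 CPM. The leukocyte gene CD3E was at 0 in all of them, PTPRC and ALB reached at most 0.0624 and 0.165 CPM, and the fibroblast gene COL1A1 was at 4.69 to 23.1, a range that includes that of PAX2. By the file headers, ER and OMM libraries of replicate 1 lie in different run folders, those of replicate 2 in the same one, and total input and pulldown of cytosol replicate 1 in different ones, so run and location cannot be fully told apart.

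The 10 genes differ in what they encode. ATP6V0A1, the a subunit that forms the proton half-channels, is 837 aa long with 6 hydrophobic windows (19 residues with a mean hydropathy of at least 1.6), the first starting at residue 401. In ATP6V0C and ATP6V0B, subunits of the rotating proteolipid ring, 155 and 205 aa long, there were 4 and 5 such windows, starting at residues 10 and 1. ATP6V0E1, the small e subunit of 81 aa, had 2, starting at residue 4, and ATP6AP1, the accessory subunit Ac45 with a large luminal domain, had 2 in 470 aa, starting at residue 23. No window was found in ATP6V0D1 (351 aa), in the catalytic A subunit ATP6V1A (617 aa), in the B subunit ATP6V1B2 (511 aa), or in ATP6V1C1 (382 aa) and ATP6V1E1 (226 aa), which belong to the stalks that hold V1 to the membrane sector.

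On GRCh38, with gene limits from GENCODE 44, the membrane-sector genes are ATP6V0A1 (ENSG00000033627, chr17:42458844-42522582, plus strand), ATP6V0B (ENSG00000117410, chr1:43974487-43978295, plus strand), ATP6V0C (ENSG00000185883, chr16:2513952-2520218, plus strand), ATP6V0E1 (ENSG00000113732, chr5:172983771-173035445, plus strand), ATP6AP1 (ENSG00000071553, chrX:154428633-154436516, plus strand) and ATP6V0D1 (ENSG00000159720, chr16:67438014-67481181, minus strand). The V1 genes are ATP6V1A (ENSG00000114573, chr3:113747033-113812056, plus strand), ATP6V1B2 (ENSG00000147416, chr8:20197381-20226819, plus strand), ATP6V1C1 (ENSG00000155097, chr8:103021063-103073051, plus strand) and ATP6V1E1 (ENSG00000131100, chr22:17592136-17628749, minus strand). ATP6V0C shares its ribosome profiling entry, and exons in the RNA-seq annotation, with a readthrough gene, so its counts are uncertain.

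The coding-sequence column of the ribosome profiling files does not cover the members evenly. It held nearly all exon footprints of ATP6V0E1, 86.4% of those of ATP6V1C1, 81.7% of ATP6V0A1 and 73.4% of ATP6V1E1. For ATP6V0C, ATP6V1B2, ATP6AP1 and ATP6V0B the shares were 42.4%, 42.3%, 26.8% and 19.3%. In ATP6V0C the column spans only 60 nt, against 465 nt of MANE coding sequence, and all its coding-sequence values rest on these. In ATP6V1A the column spans 67 nt. Only 2.84% of the ATP6V1A footprints and 0.0142% of the ATP6V0D1 footprints fell in it, so neither reached the minimum of 64 footprints in both total inputs, and 8 of the 10 members were tested on coding-sequence counts. Counts over all exons, in which all 10 members were tested, are therefore given beside them.

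Levels per length were compared in the 6 ribosome profiling total inputs as footprints over all exons per kilobase of MANE coding sequence and per 1e6 exon footprints. By this measure, added after seeing the data, the proteolipid gene ATP6V0B was highest, at a median level of 514 (329 to 727). It was followed by ATP6V0E1 at 303 (215 to 389) and ATP6V0C at 280 (243 to 414). The ranges of these neighbours overlapped. A middle group held ATP6V1E1 at 191 (147 to 204), ATP6AP1 at 190 (179 to 252), ATP6V1A at 175 (129 to 208) and ATP6V0D1 at 173 (97.4 to 230), again with overlapping ranges. ATP6V1C1 at 81.5 (49.0 to 98.1), ATP6V1B2 at 73.0 (51.2 to 81.4) and ATP6V0A1 at 56.9 (54.0 to 76.7) were lowest, and each of them lay below every member of the middle group within each of the 6 libraries. In FPKM, computed from counts and annotated lengths of the 6 RNA-seq total inputs with CHX, the order was another one, with ATP6V1A highest at a median of 49.2 (44.3 to 81.3), ATP6V1E1 at 34.4 (33.2 to 37.9) and ATP6V0E1 at 33.6 (28.5 to 40.7), and ATP6V0C and ATP6V0D1 lowest at 9.21 (4.66 to 10.4) and 8.81 (7.98 to 9.85). These FPKM divide by the length of all annotated exons of a gene, not of a single transcript, so this order also depends on the annotation. The order of the ribosome profiling total inputs also changed when RPKM of the coding-sequence column was used. There ATP6V0C was highest, at a median of 655, but its column spans only 60 nt. ATP6V0B was at only 53.0, below ATP6V0E1, ATP6V1E1, ATP6AP1 and ATP6V1A. For ATP6V1A the column spans 67 nt and held too few footprints to be tested. For ATP6V0B it held 19.3% of the exon footprints. The ranks of these 3 genes thus depend on the measure.

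At the ER, which asks where membrane and secretory proteins are made, the members of the 2 sectors separated. All 5 membrane-embedded members were enriched in the pulldown over the total input, and the 3 V1 members tested on coding-sequence counts were depleted. Of all 7864 genes tested, 20.1% were higher and 71.6% lower in the pulldown, with a median log2 enrichment of -0.67. Depletion was thus the common state of a gene in this comparison. With TMM scaling, which sets the typical gene near 0, 2322 genes were higher and 2022 lower in place of 1581 and 5630.

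ATP6V0C had a log2 enrichment at the ER of 1.93 and 2.31 in replicates 1 and 2 (edgeR estimate 2.11, SE 0.11, adjusted p = 9.4e-12), and ATP6V0B had 2.19 and 2.01 (2.10, SE 0.14, adjusted p = 1.4e-10). ATP6AP1 had 1.67 and 1.64 (1.65, SE 0.10) and ATP6V0E1 1.48 and 1.60 (1.54, SE 0.10). ATP6V0A1 was lowest of the membrane-embedded members, at 0.95 and 1.05 (1.00, SE 0.09, adjusted p = 1.4e-08). Both replicates of each membrane-embedded member lay above both replicates of every V1 member.

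Among V1 members, log2 enrichment at the ER was -1.24 and -1.09 for ATP6V1B2 (estimate -1.17, SE 0.12), -0.78 and -0.80 for ATP6V1C1 (-0.79, SE 0.12), and -0.61 and -0.72 for ATP6V1E1 (-0.66, SE 0.11). The last 2 lay close to the median of all genes. With TMM scaling, which moved that median to -0.04, ATP6V1B2 stayed lower at -0.53, while ATP6V1C1 at -0.15 and ATP6V1E1 at -0.03 no longer passed the test, and the 5 membrane-embedded members ranged from 1.64 to 2.75.

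Over all exons 9620 genes were tested at the ER, of which 21.0% were higher and 71.6% lower. The membrane-embedded members again passed the test as higher, with log2 enrichments from 0.95 (ATP6V0A1) to 2.29 (ATP6AP1), and all 4 V1 members as lower, from -1.23 (ATP6V1A) to -0.74 (ATP6V1C1). ATP6V0D1, the peripheral subunit, had -0.11 and -0.18 in the 2 replicates and did not pass the test (estimate -0.14, 95% interval -0.32 to 0.03, adjusted p = 0.106), but with TMM scaling it was higher at 0.46 (adjusted p = 0.0002). On either scale it lay between the membrane-embedded members and the V1 members.

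**Figure D1:**
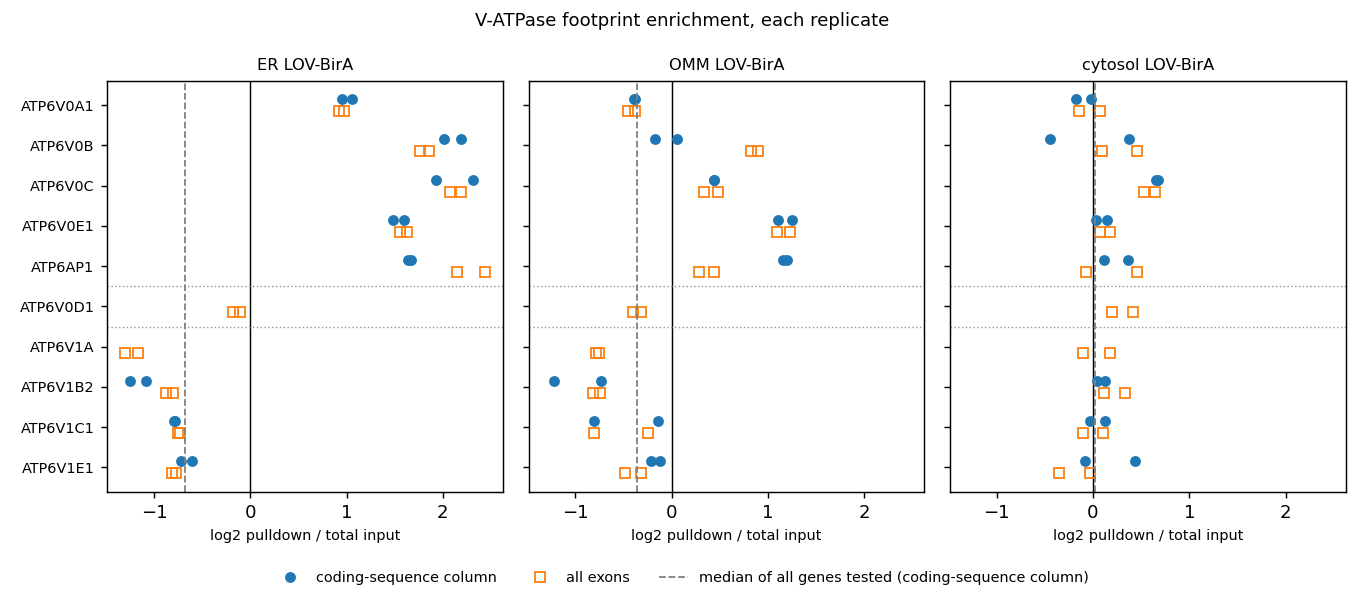
Log2 footprint enrichment (pulldown over total input, x axis) of each member in each of the 2 replicates at the ER, OMM and cytosol, on coding-sequence counts (filled circles) and all exons (open squares), with the median of all genes tested as a dashed line. At the ER the 5 membrane-embedded genes at the top sit between 0.92 and 2.44 and every V1 gene lies below 0.

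At the OMM the membrane-embedded members did not move together. Of 7162 genes tested on coding-sequence counts, 17.7% were higher and 45.4% lower, with a median log2 enrichment of -0.36. Among the 8 members tested, 3 were higher and 3 were lower. TMM scaling moved the median to -0.06 and the split of all genes from 1268 higher and 3248 lower to 1881 and 1793.

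ATP6V0E1 had a log2 enrichment at the OMM of 1.11 and 1.25 (edgeR estimate 1.18, SE 0.10, adjusted p = 4.9e-08), and ATP6AP1 had 1.20 and 1.16 (1.18, SE 0.10, adjusted p = 4.7e-08). ATP6V0C was higher by less, at 0.44 in both replicates (0.44, SE 0.12, adjusted p = 0.00532). ATP6V0B had -0.17 and 0.05 and did not pass the test (adjusted p = 0.764). ATP6V0A1 was lower, at -0.39 and -0.38 (-0.39, SE 0.11, adjusted p = 0.00468), about the value of the median gene.

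The V1 members at the OMM were ATP6V1B2 at -0.73 and -1.22 (log2 estimate -1.03, SE 0.16, adjusted p = 2.4e-05), ATP6V1C1 at -0.14 and -0.80 (-0.52, SE 0.14, adjusted p = 0.00466) and ATP6V1E1 at -0.22 and -0.12, which did not pass the test (adjusted p = 0.304). The 2 replicates of ATP6V1C1 lay far apart, and without OMM replicate 2 its log2 enrichment was -0.14 and not called. The calls for ATP6V0A1 (-0.38 and -0.40) and ATP6V0C (0.43 and 0.44) were lost without either OMM replicate at unmoved values. With TMM scaling ATP6V0A1 (-0.08) and ATP6V1C1 (-0.21) did not pass.

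Over all exons 9027 genes were tested at the OMM, with 17.5% higher and 48.3% lower. ATP6V0E1 was close to its coding-sequence value at a log2 enrichment of 1.17, while ATP6V0B was now higher, at 0.82 and 0.90 (estimate 0.86, SE 0.09, adjusted p = 3.6e-07), and ATP6AP1 was higher by less, at 0.44 and 0.28 (0.36, SE 0.11, adjusted p = 0.0096). ATP6V0C was at 0.41 and ATP6V0A1 at -0.41, so all 10 members were called. ATP6V0D1 at -0.36, ATP6V1A at -0.78, ATP6V1B2 at -0.77, ATP6V1C1 at -0.58 and ATP6V1E1 at -0.39 were all lower. ATP6V0A1, ATP6V0D1, ATP6V1C1 and ATP6V1E1 did not pass with TMM scaling (-0.10, -0.05, -0.26 and -0.08). Without OMM replicate 1 the calls for ATP6AP1 (0.28), ATP6V0C (0.34), ATP6V0D1 (-0.32) and ATP6V1E1 (-0.32) were lost, and without replicate 2 those for ATP6AP1 (0.44) and ATP6V1C1 (-0.26).

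Some of these genes differ between exon positions inside and outside the coding-sequence column. These are positions of a gene entry, not of 1 transcript. For ATP6V0B the column spans 746 nt, more than its MANE coding sequence of 615 nt, so it also holds positions outside that sequence. At the OMM, ATP6V0B had log2 enrichments of 1.05 and 1.02 at exon positions outside the coding-sequence column against -0.17 and 0.05 inside it, and ATP6AP1 had -0.07 and -0.32 outside against 1.20 and 1.16 inside. At the ER the difference for ATP6AP1 ran the other way, with 2.87 and 2.37 outside and 1.67 and 1.64 inside. The replicates of the 2 sets of positions did not overlap in these 3 cases. Which positions of the protein they encode was not analysed here, and the difference was not tested.

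**Figure D2:**
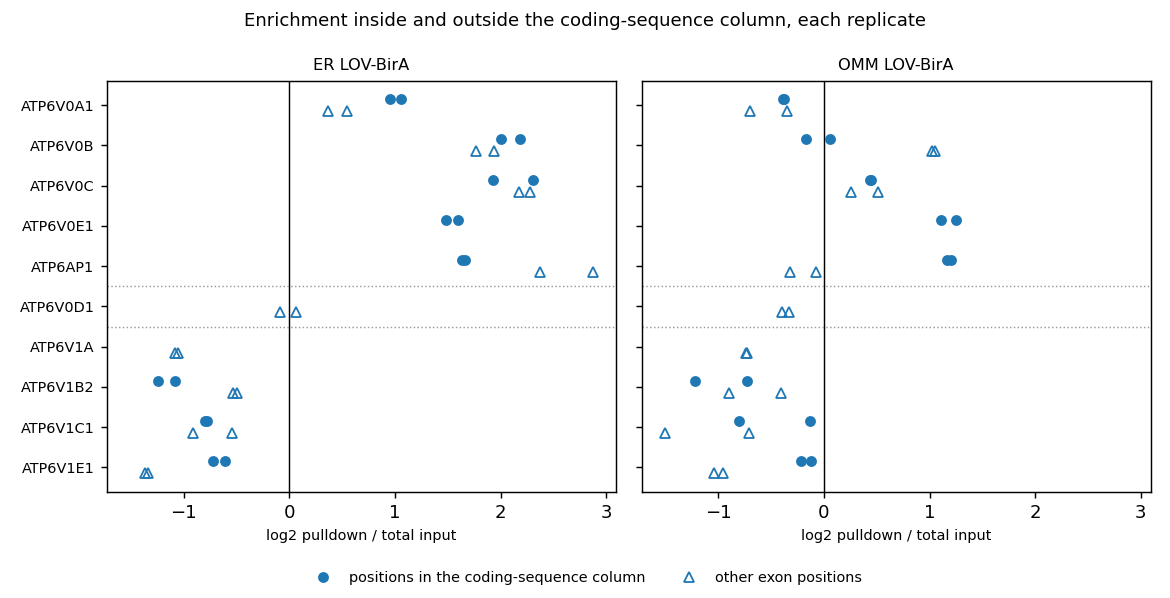
Log2 footprint enrichment (x axis) of each member in each replicate at the ER and OMM, for positions inside the coding-sequence column (filled circles) and other exon positions (open triangles), shown where both total inputs hold at least 64 footprints. ATP6V0B at the OMM is near 0 inside and above 1 outside, and ATP6AP1 is above 1 inside and below 0 outside.

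With LOV-BirA in the cytosol, members lay near the median gene, which had a log2 enrichment of 0.02. Of 7636 genes tested 2.07% were higher and 6.29% lower, and of the 8 members ATP6V0C alone was called, at 0.66 and 0.67 (edgeR estimate 0.67, SE 0.11, adjusted p = 0.00037). The other 7 had estimates from -0.10 (ATP6V0A1) to 0.24 (ATP6AP1, adjusted p = 0.133). Over all exons, where 3.66% of 9602 genes were higher and 7.11% lower, ATP6V0C (0.59) and ATP6V0D1 (0.41 and 0.20, estimate 0.31, adjusted p = 0.0242) were higher. Leaving out a replicate changed these few calls. Without cytosol replicate 1, ATP6V1E1 was called on coding-sequence counts (0.44), and over all exons ATP6V1B2 was called (0.33) and ATP6V0D1 was not (0.20). Without replicate 2, ATP6AP1 was called on coding-sequence counts (0.36), and over all exons ATP6AP1 (0.46), ATP6V0B (0.46) and ATP6V1E1 (-0.35) were.

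The locations were then compared directly, as differences of log2 enrichment. ER minus OMM was positive for all 5 membrane-embedded members on coding-sequence counts: 2.16 (SE 0.20) for ATP6V0B, 1.67 (SE 0.16) for ATP6V0C, 1.39 (SE 0.14) for ATP6V0A1, 0.47 (SE 0.14, adjusted p = 0.00907) for ATP6AP1 and 0.36 (SE 0.14, adjusted p = 0.0416) for ATP6V0E1. Of 7107 genes tested, 18.6% were higher at the ER and 31.7% lower. The difference for ATP6V0E1 was not called when any one of the 4 ER and OMM lysates was left out (0.29 to 0.43), nor that for ATP6AP1 without ER replicate 1 (0.46), OMM replicate 1 (0.49) or OMM replicate 2 (0.45). ATP6V1E1 was lower at the ER by this measure (-0.50, SE 0.18, adjusted p = 0.0253), a call lost without any one of these lysates and with TMM scaling (-0.17). The intervals for ATP6V1B2 (-0.56 to 0.29) and ATP6V1C1 (-0.66 to 0.13) included 0, and without OMM replicate 2 ATP6V1C1 was called at -0.65.

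Over all exons, where 21.0% of 8991 genes were higher and 31.0% lower, ER minus OMM was 1.93 (SE 0.16) for ATP6AP1 and 0.95 (SE 0.13) for ATP6V0B, which exchanged their order relative to coding-sequence counts. ATP6V1A (-0.46) and ATP6V1E1 (-0.40) were lower and lost the call with TMM scaling (-0.17 and -0.12) and under 3 of the 4 ways of leaving out a lysate (-0.47 to -0.39 and -0.42 to -0.31), and ATP6V0D1 was not called (0.21, 95% interval -0.05 to 0.48) except with TMM scaling (0.50).

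ER minus cytosol was positive for the same 5 genes on coding-sequence counts, from 1.10 (ATP6V0A1) to 2.05 (ATP6V0B), and negative for ATP6V1B2 (-1.26), ATP6V1C1 (-0.83) and ATP6V1E1 (-0.82), against 19.9% of 7261 genes higher and 61.5% lower. With TMM scaling ATP6V1C1 and ATP6V1E1 did not pass (-0.19 for each). Over all exons all 10 members were called, 5 in each direction, where 20.9% of 9206 genes were higher and 63.4% lower. ATP6V0D1 was at -0.46 (adjusted p = 0.00183), and with TMM scaling at 0.13 and not called, as were ATP6V1C1 (-0.14) and ATP6V1E1 (near 0).

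OMM minus cytosol was positive for ATP6V0E1 (1.09, SE 0.14, adjusted p = 9.1e-06) and ATP6AP1 (0.94, SE 0.14, adjusted p = 3.2e-05) and negative for ATP6V1B2 (-1.12) and ATP6V1C1 (-0.56), with 17.4% of 6891 genes higher and 38.9% lower. ATP6V1C1 was not called without OMM replicate 2 (-0.18) or with TMM scaling (-0.25). Without cytosol replicate 1, whose libraries lie in different run folders, ATP6V0A1 (-0.37) and ATP6V1E1 (-0.60) were called too, and without cytosol replicate 2 ATP6V0B was (-0.43). Over all exons (16.8% of 8841 genes higher and 41.2% lower) 7 members were called: ATP6V0E1 (1.03) and ATP6V0B (0.58) were higher, and ATP6V1B2 (-0.99), ATP6V1A (-0.81), ATP6V0D1 (-0.67), ATP6V1C1 (-0.57) and ATP6V0A1 (-0.37) were lower. Of these ATP6V0A1 (-0.07) and ATP6V1C1 (-0.26) did not pass with TMM scaling. ATP6V0A1 was also not called without OMM replicate 1 (-0.34), OMM replicate 2 (-0.42) or cytosol replicate 2 (-0.26), nor was ATP6V1C1 without OMM replicate 2 (-0.25). The accessory subunit ATP6AP1 was not called at 0.16 (95% interval -0.16 to 0.49), except with TMM scaling (0.46) or without cytosol replicate 1 (0.43). ATP6V0E1 was thus the member whose OMM enrichment passed the test against both the total input and the cytosol on both kinds of count.

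Whole-transcript RNA-seq with the OMM bait asks the same of mRNAs. In wild-type cells 20.2% of 13856 genes were higher in the pulldown and 45.6% lower, with a median log2 enrichment of -0.28. All 10 members were tested, and 5 were higher and 4 lower. TMM scaling moved the median to 0.01 and the split of all genes from 2803 higher and 6324 lower to 4296 and 3847.

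ATP6V0E1 had the highest log2 enrichment of the members, at 1.60 and 1.62 (edgeR estimate 1.61, SE 0.09, adjusted p = 8.2e-06). ATP6V0B had 1.14 and 1.14 (1.14, SE 0.11), ATP6V0C 0.82 and 0.72 (0.77, SE 0.21) and ATP6AP1 0.52 and 0.20 (0.36, SE 0.12, adjusted p = 0.025). ATP6V0A1 was lower, at -0.51 and -0.67 (-0.59, SE 0.10, adjusted p = 0.00126). As mRNAs at the OMM the membrane-embedded members thus ran from below the median gene to above 1, and as footprints from about the median gene to above 1.

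ATP6V0D1 had -0.02 and -0.09 and was not called in wild-type RNA-seq (log2 estimate -0.05, 95% interval -0.27 to 0.17). ATP6V1A (-0.98), ATP6V1C1 (-0.75) and ATP6V1B2 (-0.47) were lower, while ATP6V1E1 was higher at 0.30 and 0.29 (0.30, SE 0.09, adjusted p = 0.0209). With TMM scaling ATP6V1B2 (-0.18) and ATP6V0A1 (-0.29, adjusted p = 0.0542) were not called. Without wild-type replicate 1 the calls for ATP6AP1 (0.20), ATP6V0C (0.72) and ATP6V1E1 (0.29) were lost, and without replicate 2 those for ATP6V0C (0.82) and ATP6V1E1 (0.30).

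In the 1 replicate without CHX, which has no replicate check, log2 enrichments of the mRNAs were 1.27 for ATP6V0E1, 1.06 for ATP6V0B, 0.86 for ATP6AP1, 0.58 for ATP6V0D1, 0.42 for ATP6V0C, 0.23 for ATP6V1E1, -0.10 for ATP6V1B2, -0.20 for ATP6V0A1, -0.75 for ATP6V1C1 and -0.79 for ATP6V1A. ATP6V0E1 and ATP6V0B were the highest and ATP6V1A the lowest of the members, as in wild-type cells with CHX. Light exposure was also shorter in that experiment, so the 2 conditions cannot be told apart.

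**Figure D3:**
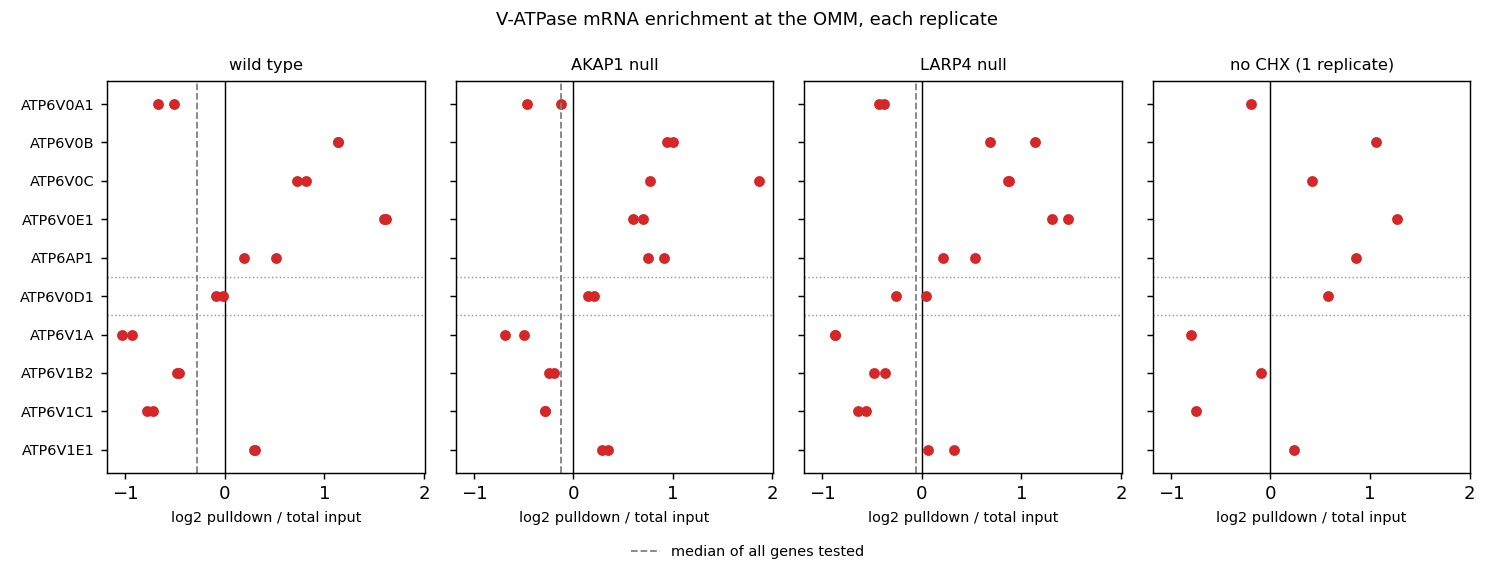
Log2 mRNA enrichment at the OMM (pulldown over total input, x axis) of each member in each replicate for wild type, AKAP1 null, LARP4 null and cells without CHX, with the median of all genes tested as a dashed line where there are 2 replicates. ATP6V0E1 is at 1.60 and 1.62 in wild type and at 0.59 and 0.70 in AKAP1 null cells.

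AKAP1 is an RNA-binding anchoring protein of the OMM, and the comparison of genotypes asks which mRNAs differ there in cells without it. Each null genotype is 1 monoclonal line, so clone and genotype cannot be told apart. The p-values of these comparisons hold no spread between clones. In AKAP1 null cells 13.9% of 13856 genes were higher in the pulldown and 28.1% lower, and 5 members were higher and 3 lower. Log2 enrichment was 0.97 (SE 0.11) for ATP6V0B, 1.30 (SE 0.22) for ATP6V0C, 0.83 (SE 0.12) for ATP6AP1, 0.65 (SE 0.09) for ATP6V0E1 and 0.32 (SE 0.09) for ATP6V1E1, and ATP6V1A (-0.59), ATP6V0A1 (-0.30) and ATP6V1C1 (-0.28) were lower. With TMM scaling ATP6V0A1 (-0.17) and ATP6V1C1 (-0.16) did not pass. Without AKAP1 null replicate 1, 5 members were called, and without replicate 2, 3 were.

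ATP6V0E1 was the member that fell. In total inputs it was at 53.1 and 47.5 CPM in wild-type and 65.5 and 55.0 in AKAP1 null cells, and in pulldowns at 161 and 146 against 99.0 and 89.3. Its log2 enrichment was 0.59 and 0.70 in AKAP1 null cells, below both wild-type replicates, and the difference was -0.96 (edgeR, SE 0.12, 95% interval -1.25 to -0.68, adjusted p = 0.0016). It ranged from -0.91 to -1.02 when single lysates were left out, with the call kept each time, and was -1.14 with TMM scaling. The call was lost without the replicate block that ties pulldown to total input. Of all genes 6.52% were higher and 7.96% lower in this comparison, and TMM moved its median from 0.19 to 0.01 and its split from 903 higher and 1103 lower to 285 and 1424.

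ATP6V1C1 was at 135 and 124 CPM in wild-type and 153 and 143 in AKAP1 null total inputs, and at 82.1 and 72.3 against 126 and 118 in pulldowns. It was higher in AKAP1 null cells, at a log2 enrichment of -0.28 in both replicates against -0.72 and -0.78 in wild type (difference 0.47, SE 0.12, adjusted p = 0.0325). This call was lost with TMM scaling (0.30, adjusted p = 0.238) and without any one of the 4 lysates (0.44 to 0.50). ATP6AP1 (0.47, adjusted p = 0.0888) and ATP6V1A (0.39, adjusted p = 0.0703) did not pass the test, and neither did ATP6V0C (0.53), whose AKAP1 null replicates lay at 1.86 and 0.77 and which was called at 1.10 without AKAP1 null replicate 2. For the other 5 members the estimates ran from -0.17 (ATP6V0B) to 0.29 (ATP6V0A1).

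Other V-ATPase subunits add to this comparison. Of 16, 11 were tested, and 2 were higher and 3 lower in AKAP1 null cells, against 6.52% and 7.96% of all genes. ATP6V0E2, the second e subunit, fell by 0.91 on the log2 scale (adjusted p = 0.00526) from 1.20 and 1.24 to 0.19 and 0.44. ATP6V1F, a small subunit of the V1 rotor, fell by 0.94 (adjusted p = 0.0071) from 1.44 and 1.47 to 0.64 and 0.40, and RNASEK, a small membrane-sector protein counted at only 80 reads in its lowest total input, fell by 0.97 (adjusted p = 0.0495). ATP6V0A2 (0.48) and ATP6AP2 (0.67) were higher and did not pass with TMM scaling (0.30 and 0.50). None of the 12 assembly factors and regulators tested was called by edgeR or DESeq2, and 3 had an unadjusted p under 0.05 by edgeR.

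In LARP4 null cells, which lack an RNA-binding protein of the La-related family, 22.8% of genes were higher in the pulldown and 30.0% lower, and 4 members were higher and 4 lower. ATP6V0E1 had a log2 enrichment of 1.46 and 1.31 (edgeR estimate 1.39, SE 0.09). It was at 61.4 and 45.8 CPM in total inputs and 170 and 113 in pulldowns. The difference from wild type was -0.23 (95% interval -0.51 to 0.05, adjusted p = 0.328), and the differences of the other 9 members ran from -0.23 (ATP6V0B) to 0.18 (ATP6V0A1), while with TMM scaling all 10 were below 0, from -0.44 (ATP6V0B) to -0.02 (ATP6V0A1), and none was called. No member and 0.0% of the 13856 genes were called by edgeR, where 2270 genes had an unadjusted p under 0.05 and DESeq2 called 4 higher and 503 lower. Without LARP4 null replicate 1, ATP6V0B (-0.46) and ATP6V0E1 (-0.31) were called.

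**Figure D4:**
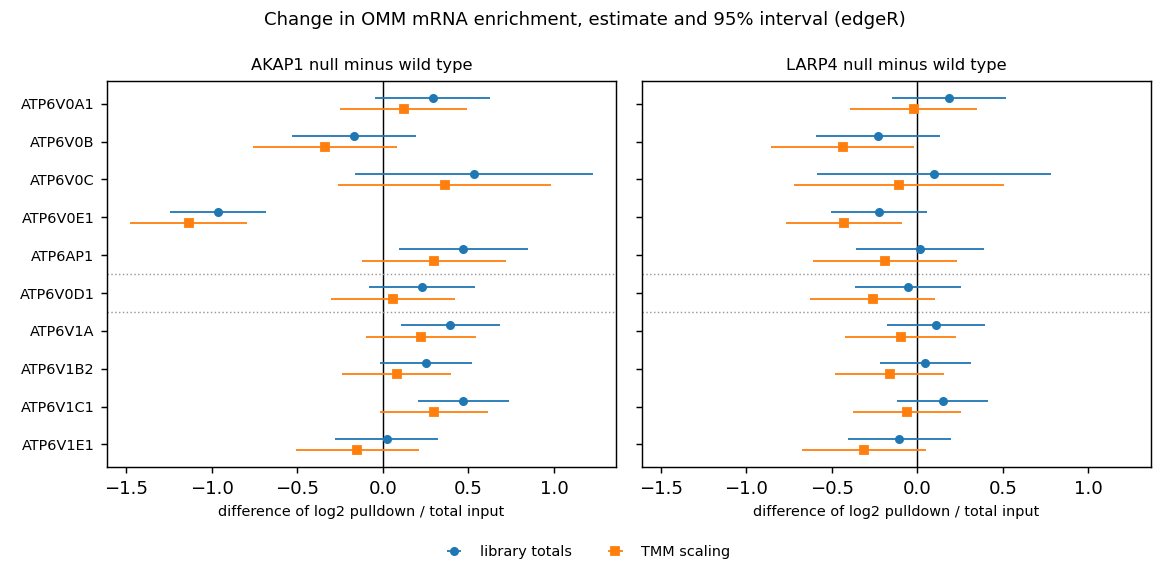
Difference of log2 OMM mRNA enrichment from wild type (x axis) with its 95% interval from edgeR for each member, in AKAP1 null and LARP4 null cells, scaled by library totals (circles) or TMM (squares). ATP6V0E1 in AKAP1 null cells is at -0.96 and its interval ends at -0.68.

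In total inputs no member was called between AKAP1 null and wild-type cells, with log2 differences from -0.34 (ATP6V0C, 95% interval -1.22 to 0.54) to 0.31 (ATP6AP1, -0.03 to 0.65). For ATP6V0E1 it was 0.27 (-0.11 to 0.65). By edgeR 0.0% of 13977 genes were called, with 489 at an unadjusted p under 0.05, and DESeq2 called 8 higher and 7 lower, with no member among them. For LARP4 null cells the members ran from -0.14 (ATP6V0B) to 0.34 (ATP6AP1), and 0.0143% of genes were called, with 509 at an unadjusted p under 0.05. A simulated log2 change of 1 in these levels was found for 55% of genes, and one of 0.5 for 0.5% or fewer. A change of 0.5 was thus hardly detectable, and sizes between 0.5 and 1 were not simulated. In the real libraries the targeted gene AKAP1, at -2.15 in AKAP1 null cells, was itself not called (edgeR, adjusted p = 0.242). LARP4 in LARP4 null cells, at -1.56, was called (edgeR, adjusted p = 0.0405). The absence of a call in AKAP1 null total inputs therefore cannot show that a member was unchanged.

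The remaining subunits and factors were also measured at the ER and OMM. At the ER, 8 of the 16 other subunits were tested on coding-sequence counts, with 3 higher and 3 lower, against 20.1% and 71.6% of all genes. The membrane-sector genes ATP6AP2 (log2 enrichment 2.30), ATP6V0E2 (1.35) and ATP6V0A2 (0.75) were higher. RNASEK, whose entry merges overlapping genes, was at -0.34 on coding-sequence counts and 1.28 over all exons, where all 4 membrane-sector genes tested were higher. In the V1 sector ATP6V1H was lower at -0.62 on coding-sequence counts, with 0.02 under TMM scaling. ATP6V1D and ATP6V1F lay below 0 at the ER with library totals and above 0 with TMM scaling and DESeq2, on both kinds of count.

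At the OMM the same 8 gave 4 higher and 2 lower, against 17.7% and 45.4% of all genes. ATP6V0E2 (0.90), ATP6V1F (0.85), RNASEK (0.56) and ATP6V1D (0.36), a subunit of the V1 rotor, were higher in log2 enrichment, and so were they in wild-type RNA-seq (1.22, 1.46, 0.63 and 0.53). ATP6V1G1, a stalk subunit, was at -1.52 on coding-sequence counts and 0.13 over all exons (adjusted p = 0.27).

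Of 13 assembly factors and regulators, 10 were tested at the ER on coding-sequence counts, with 4 higher and 5 lower, against 20.1% and 71.6% of all genes. The membrane proteins TMEM9B (2.19), TMEM9 (1.82) and VMA21 (1.38), an assembly chaperone of the membrane sector, were higher in log2 enrichment, as was OXR1 (0.44, and 0.20 and not called over all exons). TMEM199, which also has 2 hydrophobic windows, lay below 0 on coding-sequence counts and above 0 with TMM scaling and over all exons. DMXL2 (-1.58), DMXL1 (-1.53) and WDR7 (-0.82), which form the complex that rejoins V1 to the membrane sector, were lower at the ER, at the OMM (-0.98, -0.90 and -0.61) and in wild-type RNA-seq (-1.59, -1.52 and -0.95), though WDR7 did not pass with TMM scaling at the ER (-0.19) or the OMM (-0.31).

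Beside these, 15 of 20 other lysosomal membrane proteins were tested at the ER and all 15 were higher, with a median log2 enrichment of 1.99, against 1.65 for the 5 membrane-embedded members. At the OMM 3 of 16 tested were higher and 2 lower, with a median of 0.03, where 17.7% of all genes were higher and 45.4% lower. Of the F-type ATP synthase subunits 14 of 16 tested were higher at the OMM (median 1.16), and 12 of 16 were lower at the ER, where 71.6% of all genes were lower. ATP6V0E1 had an OMM footprint enrichment close to that median. In AKAP1 null against wild-type enrichment 13 of the 17 ATP synthase subunits were lower and 2 were higher, with a median difference of -1.18, where 7.96% of all genes were lower and 6.52% higher. The 2 higher ones, named after their values were seen, were the catalytic-core subunits ATP5F1A, with a difference of 1.33 (SE 0.15, adjusted p = 0.00102), and ATP5F1B, with 1.14 (SE 0.22, adjusted p = 0.0112).

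Genes of most alike pattern were sought by Euclidean distance over 8 log2 enrichments (2 replicates at each location and in wild-type RNA-seq) among 6431 genes tested in all 4 data sets. Nearest to the mean of the 5 membrane-embedded members were SCAMP3 (distance 0.351), JMJD8 (0.354) and DIPK1B (0.368). The members themselves lay at 0.984 (ATP6V0C) to 2.389 (ATP6V0A1) from their own mean. The named genes were picked as the nearest of all genes compared, so their distances cannot be weighed against those of the members. Genes that share a ribosome profiling entry with another gene were not among those compared. Nearest to the mean of the 3 V1 members tested were UGDH (0.224), PSAT1 (0.234) and ENOX2 (0.252). These V1 members lay at 0.686 to 1.124, and no test was made for either sector.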

How the data were processed

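Ribosome profiling (12 libraries) and RNA-seq (14) were measured in HEK293T cells. Per the file headers the authors counted footprints of 27 to 36 nt against GRCh38 (Ensembl 104) with plastid, ignoring 13 nt at each end, and deposited estimated counts and RPKM for all exons and for the coding-sequence column, which is read here as positions annotated only as coding. Bowtie and GRCh38 are named in the submitters' processing notes. For RNA-seq the authors deposited a count per gene from featureCounts after STAR, and an FPKM column that was not used; FPKM printed here were computed from counts and annotated lengths. Whether counting used strand is not given in the sources used here. From 3 to 7 broken lines per RNA-seq file were left out.

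Members and lists were chosen with earlier results of these data known. All 10 members are named, other subunits and assembly factors only from lists ordered by role, and the 3 genes of most alike pattern by distance. Enrichment per replicate is the log2 ratio of pulldown to total input, each over its library total, after adding 0.5 counts. Counts were rounded and fitted with edgeR 4.0.16 under R 4.3.3, by its quasi-likelihood test, two-sided, with Benjamini-Hochberg adjustment over all genes and a threshold of 0.05. The model had lysate terms and one pulldown effect for every location or genotype, and library totals set the scale. Genes needed at least 64 footprints in both total inputs or, for RNA-seq, on average 64 counts. Total inputs were compared with TMM. Pulldown and total input are paired because both come from 1 lysate, and their deviations correlated (r = 0.638 to 0.894 within lysates). The study calls the OMM profiling replicates biological, and nothing says this of the others, so p-values measure only the spread between these samples, which may be technical. Alternatives were TMM, DESeq2 1.42.0, totals over all exons, a minimum of 10, no replicate block, fits on each location's or genotype's own libraries and leaving out each replicate. Fits over all exons under further settings, and levels per MANE coding length, were added after seeing the data. The fits were tested on simulated data in which 200 genes had been altered. Shifts of 1 on the log2 scale were recovered in 96.5% (ER, 8732 genes), 83.5% (OMM, 8732) and 68.0% (AKAP1 null against wild-type enrichment, 13856), and shifts of 0.5 in 54.5%, 24.5% and 0.0%. Tables and figures used Python 3.11.15, pandas 2.3.3 and matplotlib 3.10.9.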

Additional observations from a re-analysis of the deposited data

Results flagged for a closer look

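Tested differences between locations or genotypes past the adjusted threshold (edgeR) are collected here as values. ER minus OMM log2 enrichment on coding-sequence counts differed for ATP6V0A1 (1.39), ATP6V0B (2.16), ATP6V0C (1.67), ATP6V0E1 (0.36), ATP6AP1 (0.47) and ATP6V1E1 (-0.50). ER minus cytosol differed for all 8 members tested, ATP6V0A1 (1.10), ATP6V0B (2.05), ATP6V0C (1.44), ATP6V0E1 (1.44), ATP6AP1 (1.41), ATP6V1B2 (-1.26), ATP6V1C1 (-0.83) and ATP6V1E1 (-0.82). OMM minus cytosol differed for ATP6V0E1 (1.09), ATP6AP1 (0.94), ATP6V1B2 (-1.12) and ATP6V1C1 (-0.56). AKAP1 null minus wild-type OMM RNA-seq enrichment differed for the members ATP6V0E1 (-0.96) and ATP6V1C1 (0.47), and for ATP6V0A2 (0.48), ATP6V0E2 (-0.91), ATP6AP2 (0.67), RNASEK (-0.97) and ATP6V1F (-0.94).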

How the results depend on the processing

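The replicate numbers of the 3 RNA-seq genotypes share only a number (correlations of their total inputs 0.206, 0.339 and -0.0559), and a replicate block in the comparison of mRNA levels left 0 members called. Without the replicate block that ties pulldown to total input, fewer members were called: 3 in place of 6 at the OMM (over all exons 3 in place of 10), 0 in place of 1 in the cytosol (0 in place of 2 over all exons), 2 in place of 6 for ER minus OMM (3 in place of 7 over all exons), 5 in place of 8 for ER minus cytosol, 0 in place of 4 for OMM minus cytosol (0 in place of 7 over all exons), 3 in place of 8 in AKAP1 null and in LARP4 null enrichment, and 0 in place of 2 for AKAP1 null minus wild type. All exons called 10 at the OMM, 2 in the cytosol and 7 for OMM minus cytosol. A minimum of 10 and totals over all exons each called 2 in the cytosol. DESeq2 and TMM each called 6 at the OMM over all exons and 1 for AKAP1 null minus wild type. Leaving out single replicates gave 3 to 4 at the OMM (6 to 8 over all exons), 2 to 2 in the cytosol (2 to 5 over all exons), 3 to 4 for ER minus OMM, 3 to 6 for OMM minus cytosol, 3 to 5 in AKAP1 null enrichment, 1 to 2 for AKAP1 null minus wild type and 0 to 2 for LARP4 null minus wild type. Of alternatives to 178 values of members, 1183 kept direction and side of the threshold, 160 lost the call, 27 gained it and 6 turned direction.

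Signs turned at the ER on coding-sequence counts, under DESeq2 and TMM respectively, for RNASEK (0.26 and 0.30, and 1.28 over all exons), ATP6V1D (0.51 and 0.55), ATP6V1F (0.37 and 0.40) and CCDC115 (0.21 and 0.24), and under TMM for ATP6V1H (0.022) and TMEM199 (0.49, and 0.31 over all exons). Over all exons they turned at the ER for ATP6V0D1 (0.42 and 0.46), ATP6V1D (0.53 and 0.56), ATP6V1F (0.40 and 0.43), ATP6V1H (0.14 and 0.18), CCDC115 (0.22 and 0.25) and ROGDI (0.085 and 0.13), and for ATP6V0D1 in ER minus cytosol (0.07 and 0.13). All exons turned ATP6V0B (0.86) and ATP6V1G1 (0.13) at the OMM and ATP6V0B in OMM minus cytosol (0.58). DESeq2 and TMM move the median gene to near 0 by construction. For the other changes the cause was not tested. Depth was lowest at the OMM, where a simulated log2 change of 0.5 in only 200 genes was found for 24.5% of them.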

Other observations

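Exon positions inside and outside the coding-sequence column also differed in the cytosol for the V1 genes ATP6V1A and ATP6V1G1. The V1 members tested on coding-sequence counts were not low inside the column there. ATP6V1B2 had log2 enrichments of 0.127 and 0.046, ATP6V1C1 -0.031 and 0.125, and ATP6V1E1 -0.083 and 0.437. ATP6V1A, with 19.1 to 54.0 coding-sequence footprints in the lowest total input of each location and so not tested there, had log2 enrichments inside the column of -2.62 and -2.59 at the ER, -3.37 and -3.29 at the OMM and -2.46 and -2.06 in the cytosol, against 0.08 and 0.35 outside it in the cytosol. ATP6V1G1, with at least 374 footprints inside the column in every total input, had -2.75 and -2.32 inside and 0.08 and 0.42 outside in the cytosol. The replicates of the 2 sets of positions did not overlap in either gene, and the cause was not tested.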
